A study of Mus musculus with 19 samples.

Results

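The genes described here are 9 of the 19716 genes measured, taken by name: the ligands Tgfb1, Tgfb2 and Tgfb3, the latent binding protein gene Ltbp1, the feedback genes Skil, Pmepa1, Smad6 and Smad7, and the transforming growth factor beta (TGF-beta) target Bhlhe40. All 9 were found and all 9 passed the filter on low values. RNA had been sequenced from fibroblasts grown from mouse embryos, and every one of the 19 libraries came from a line whose Sec24d gene is knocked out, the controls included. SEC24 proteins select cargo for the vesicles that leave the endoplasmic reticulum, and the series asks what further loss of SEC24 paralogs does to gene expression in these cells. No library with an intact Sec24d gene was analysed here, and the labels do not say whether the line is a single clone.

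The groups were as follows. The triple knockdown (n = 5) received siRNAs against Sec24a, Sec24b and Sec24c, and its control (n = 5) received 150 nM scrambled siRNA. The Sec24B knockdown (n = 5) received siRNA against Sec24b alone, and its control (n = 4) received 50 nM scrambled siRNA. The SEC24 siRNAs are given as 50 nM, without saying whether this is the dose of each. All 4 groups are labelled 48 h. That 150 nM is the matching dose for the triple knockdown is inferred from the doses and library names, not stated.

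TGF-beta ligands are made as precursors that are cut by furin, and leave the cell in an inactive complex of the mature dimer, its own propeptide and a latent TGF-beta binding protein. Once released, the dimer joins type II and type I receptor kinases that phosphorylate SMAD2 and SMAD3, which then enter the nucleus with SMAD4. Among the genes they switch on are inhibitors of the pathway itself, such as Smad7, Skil and Pmepa1, and in fibroblasts also matrix and contractile genes.

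The files held 9101855 to 19709672 reads per library, and the 9 genes had 179 to 5506 reads each in every library. The siRNAs lowered their targets: Sec24b averaged 509 ± 105 normalised counts in the triple knockdown against 1222 ± 39.0 with 150 nM scrambled siRNA, and 479 ± 16.9 in the Sec24B knockdown against 1114 ± 76.7 with 50 nM (SD). In the triple knockdown Sec24c averaged 809 ± 44.0 against 2795 ± 95.1, and Sec24a 487 ± 130 against 800.3 ± 57.0 (SD, n = 5 each). Sec24d transcripts were counted in all 4 groups, at means of 428 to 465, and the labels do not give the deleted part of the gene. Triple knockdown replicate 1 stood apart, with a root mean square log2 deviation from its group's mean of 0.309 over all genes, against 0.138 to 0.175 in the other 4 and 0.0947 to 0.160 in the other groups. Read counts were also compared pair by pair, as a chi-square per degree of freedom. Triple knockdown replicate 5 differed from replicates 2, 3 and 4 by 15.7 to 18.6, and these from each other by 2.54 to 3.27. Replicate 1 differed from the other 4 by 23.7 to 45.8. With 50 nM scrambled siRNA, replicate 4 differed from replicates 1, 2 and 3 by 8.001 to 9.465, and these from each other by 2.087 to 3.48. Its root mean square log2 deviation was 0.1595, against 0.0947 to 0.1098 in these. Pairs differed by 2.662 to 7.938 in the Sec24B knockdown and by 1.8 to 8.825 with 150 nM. Sec24a was lowest in replicates 1 and 5 of the triple knockdown, at 299 and 403, with 572 to 583 for the other 3. The same libraries were lowest for Sec24b (369 and 436, with 531 to 606) and Sec24c (775 and 752, with 829 to 858). They were also lowest for Sec24d, against which no siRNA was given (223 and 440, with 491 to 563). Whether replicates came from separate cultures is not labelled, and without that the p-values cover no more than the spread among the libraries sequenced, which may be technical. Library names number the samples consecutively within each group on a shared lane, so that the order of preparation, if it followed these numbers, and the group cannot be told apart.

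Of 10 fibroblast markers, 9 were in the table and 7 had a mean of at least 100 normalised counts in every group, among them Col1a1, Col1a2, Pdgfrb and Vim. Lum and Fap averaged at most 5.37 in every group. The summed fibroblast markers ranged from 196759 to 234327 in the triple knockdown and from 304516 to 376396 with 150 nM scrambled siRNA. They ranged from 306005 to 341178 in the Sec24B knockdown and from 345758 to 389914 with 50 nM. Col1a1 and Col1a2, both also listed below as SMAD targets, averaged 84994 and 61425 in the triple knockdown, against 165176 and 91965 with 150 nM. Vim averaged 64871 against 73535 in the same groups, Pdgfrb 1664 against 2614, S100a4 383 against 461 and Pdgfra 134 against 142. Dcn was higher in the triple knockdown, at 656 against 494. Markers of other cell types were counted as well. The 4 epithelial markers measured summed to 34.9 to 65.2 in the triple knockdown, 55.1 to 90.1 with 150 nM, 46.7 to 64.8 in the Sec24B knockdown and 38.5 to 73.2 with 50 nM. The 5 endothelial markers summed to 86.5 to 194.8, 129.8 to 148.1, 88.5 to 120.3 and 85.4 to 106.9 in the same order of groups. Among them Vwf averaged 116.5, 90.3, 42.6 and 38.2, while Pecam1 averaged 4.17, 9.84, 7.24 and 5.21 and Cdh5 5.60, 9.32, 7.12 and 7.61. Kdr averaged 15.2, 28.5, 38.8 and 43.9, and Tek 9.43, 0.38, 4.51 and 1.77. Of 5 macrophage markers, Csf1r and Cd68 were measured, with sums of 52.5 to 77.9, 123.4 to 155.6, 51.3 to 70.1 and 58.7 to 88.6 in that order. Of 5 skeletal muscle markers Des alone was measured, at 215.0 to 294.4, 163.4 to 233.6, 227.6 to 272.4 and 111.6 to 173.6. The part of these markers in the results was not tested. In bulk RNA, fewer cells of a type and less RNA per cell cannot be told apart.

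Levels below are normalised counts, in which each library's reads have been scaled by a single factor. Effects are log2 fold changes with the standard error of a limma fit to all 19 libraries and 19635 genes, on log2 of the normalised count plus 1. A gene is said to have risen or fallen where its two-sided p, adjusted by Benjamini-Hochberg over all genes, was at most 0.05. In the triple knockdown 7 of the 9 genes fell and 0 rose, while 17.2% of all genes tested fell and 16.8% rose. In the Sec24B knockdown 5 fell and 0 rose, while 7.08% of all genes fell and 7.53% rose. The 19635 genes include many with fewer reads than the 9, since 11477 others had a mean of at least 50 normalised counts. The share called among genes of like level was not counted. The 9 genes were chosen with earlier results of these data known. The median log2 fold change of the 9 genes was -0.45 in the triple knockdown and -0.30 in the Sec24B knockdown, beside 0.01 over all genes in both. Ltbp1, Skil, Pmepa1 and Bhlhe40 fell in both knockdowns. Tgfb1, Tgfb2 and Tgfb3 fell in the triple knockdown and did not pass the test in the Sec24B knockdown, while Smad7 fell in the Sec24B knockdown and did not pass in the triple. Smad6 passed in neither. Between the doses of scrambled siRNA, Tgfb1 and Pmepa1 were higher at 150 nM than at 50 nM and 0 were lower, while 4.75% of all genes were higher and 4.1% lower.

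**Figure D1:**
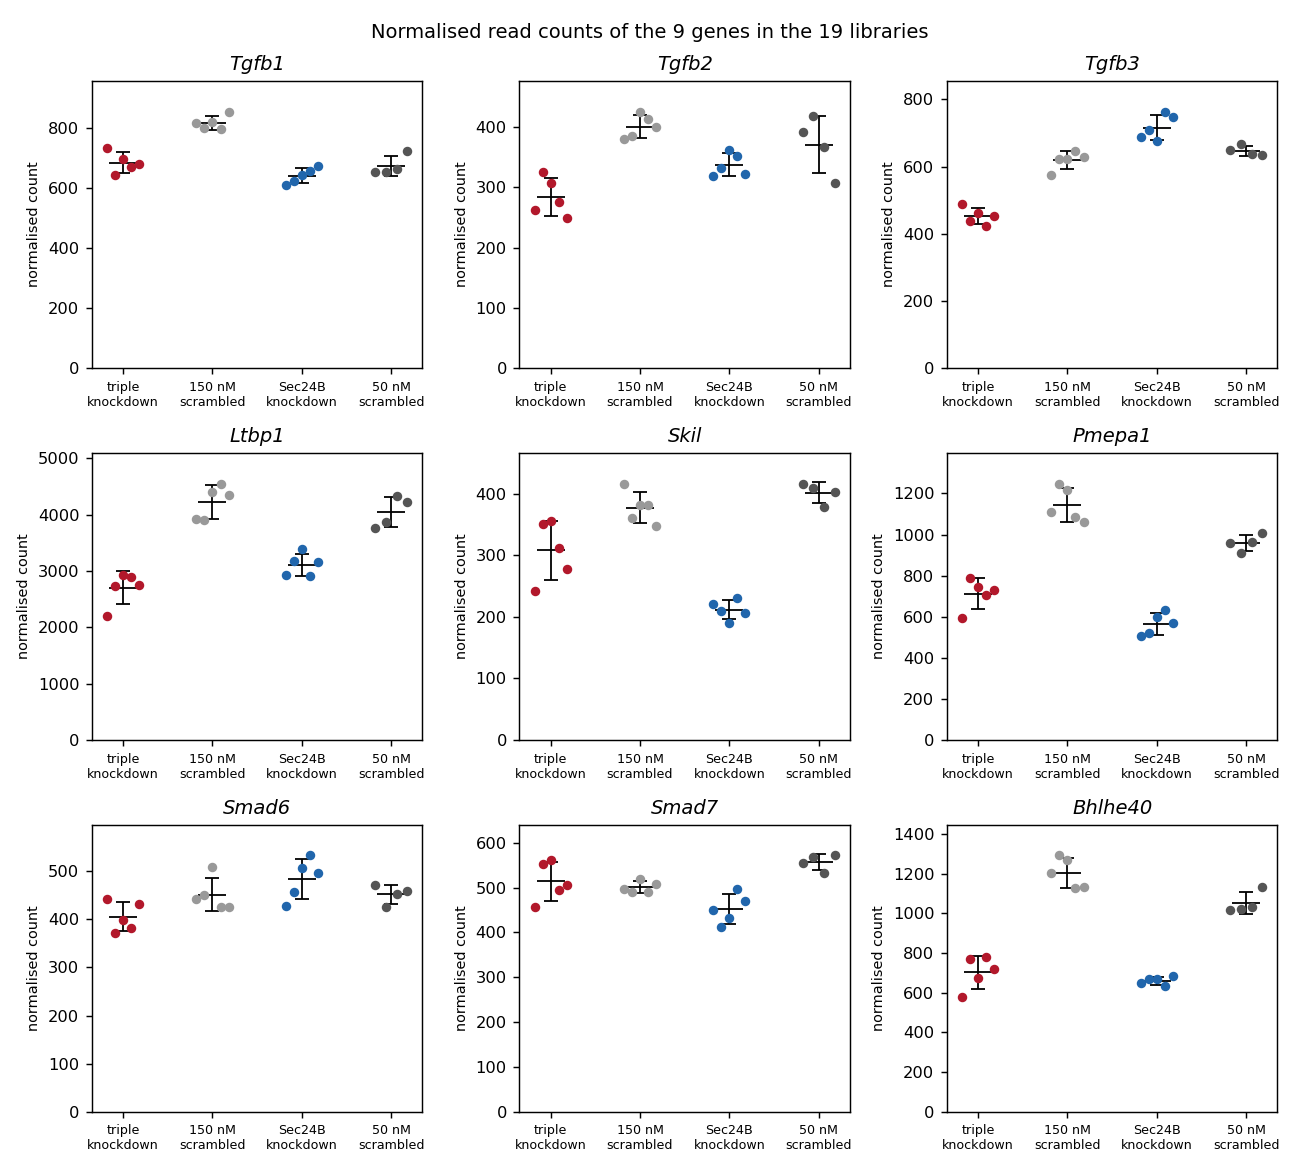
Normalised read counts of the 9 genes on a linear axis from 0, with 1 point per library and bars for the mean ± SD (n = 5 for the triple knockdown, the 150 nM scrambled control and the Sec24B knockdown, n = 4 for the 50 nM control). Pmepa1 and Bhlhe40 sit below their matching controls in every library of both knockdowns, while Tgfb3 is below its control in the triple knockdown and above it in the Sec24B knockdown.

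Tgfb1 (ENSMUSG00000002603, GRCm38 chromosome 7, 25687002 to 25705077, plus strand) encodes the isoform best known from platelets, immune cells and fibrosis. The stretch from 250 bases before to 50 bases after its start site (RefSeq, GRCm38.p6, chr7:25686752-25687051, plus strand) is shown because Tgfb1 is the ligand that fell least in the triple knockdown. It was searched on both strands, as were the other promoters printed here, for CAGAC and GTCTAGAC (short and palindromic SMAD-binding elements), CACGTG (an E-box that BHLHE40 can bind) and TGANTCA (an AP-1 type site). It holds none of these letters, so no base is in capitals.
Tgfb1: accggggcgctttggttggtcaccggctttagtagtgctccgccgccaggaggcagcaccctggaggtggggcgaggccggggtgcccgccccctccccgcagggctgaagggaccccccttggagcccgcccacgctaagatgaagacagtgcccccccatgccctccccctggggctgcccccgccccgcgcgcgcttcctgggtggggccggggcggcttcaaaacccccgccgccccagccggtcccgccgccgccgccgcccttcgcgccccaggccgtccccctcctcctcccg
Of its bases 77% are G or C. Of 32851 promoters of this length in the RefSeq table, 49.6% hold CAGAC, 0.213% GTCTAGAC, 7.15% CACGTG and 7.81% TGANTCA.

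Tgfb1 stood at 732.5, 641, 697, 669 and 677 normalised counts in the triple knockdown, against 815, 799, 819, 794 and 852 with 150 nM scrambled siRNA. Every triple knockdown library was below every control library, and the log2 fold change was -0.26 ± 0.05 (limma adjusted p = 0.000565). In the Sec24B knockdown it stood at 610, 622, 641, 655 and 671, against 652, 652, 662 and 723 with 50 nM scrambled siRNA. These groups overlapped, and Tgfb1 did not pass the test (-0.07 ± 0.06, adjusted p = 0.48). Between the scrambled doses, every 150 nM library was above every 50 nM library, with a log2 fold change of 0.28 ± 0.06 (adjusted p = 0.00239). The triple knockdown mean, 683 ± 34.1, lay within 11.2 counts of the 50 nM mean, 672 ± 34.1 (SD), and these libraries overlapped. With both scrambled groups pooled as the control, the triple knockdown effect was -0.13 (adjusted p = 0.14) and the Sec24B effect -0.23 (adjusted p = 0.0161). The fall of Tgfb1 in the triple knockdown is a difference from the 150 nM control alone.

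Tgfb2 (ENSMUSG00000039239, chromosome 1, 186622792 to 186705989, minus strand) encodes an isoform that needs betaglycan for efficient receptor binding and is prominent in heart and palate development. Its promoter (chr1:186705940-186706239, minus strand, 54.3% G or C) is shown beside that of Tgfb1 because the same search gave matches here. Capitals mark CAGAC at positions -221 and -204 and CACGTG at -51 from the start site.
Tgfb2: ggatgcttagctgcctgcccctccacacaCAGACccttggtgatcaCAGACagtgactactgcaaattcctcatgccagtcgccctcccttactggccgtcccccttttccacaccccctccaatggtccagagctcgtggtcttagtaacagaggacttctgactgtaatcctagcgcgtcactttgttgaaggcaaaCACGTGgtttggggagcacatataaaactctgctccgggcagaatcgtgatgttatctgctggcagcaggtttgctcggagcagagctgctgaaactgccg
A match is a description of these letters only.

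Tgfb2 stood at 262, 325, 307, 276 and 249 normalised counts in the triple knockdown, against 381, 385, 425, 413 and 400 with 150 nM scrambled siRNA. The groups did not overlap, and the log2 fold change was -0.50 ± 0.08 (adjusted p = 4.13e-05), and the mean fell by 29.2%. With Sec24b siRNA alone it stood at 318, 331, 363, 352 and 323, against 391, 418, 367 and 307 with 50 nM. The 50 nM control itself spread most of the 4 groups (SD 47.3), its replicate 4 lay below all 5 Sec24B libraries, and Tgfb2 did not pass (-0.13 ± 0.09, adjusted p = 0.389). Exons of Gm29491 lie opposite 124 bases of Tgfb2 exon, and this gene averaged 1.58 to 4.88 normalised counts over the groups.

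Tgfb3 (ENSMUSG00000021253, chromosome 12, 86056745 to 86079041, minus strand) encodes the isoform required for palate fusion. It stood at 488, 437, 461, 423 and 453 normalised counts in the triple knockdown, against 576, 622, 624, 647 and 627 with 150 nM scrambled siRNA. The groups did not overlap, and the log2 fold change was -0.45 ± 0.06 (adjusted p = 8.33e-07). Tgfb3 in the Sec24B knockdown stood at 687, 708, 675, 763 and 746, against 649, 668, 637 and 634 with 50 nM. Here every Sec24B library was above every control library, by 10.7% of the mean, yet the gene did not pass the test over all genes (0.14 ± 0.06, adjusted p = 0.117). With both scrambled groups pooled as control it did pass, as higher (0.18, adjusted p = 0.0131). Exons of Gm37804 and Gm48008 lie opposite 163 and 257 bases of Tgfb3 exon, and these genes were not analysed here.

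Whether the triple knockdown moved a ligand differently from the Sec24B knockdown was tested as the difference of the effects, each against its own scrambled dose. It was -0.60 ± 0.08 for Tgfb3 (adjusted p = 1.38e-05) and -0.37 ± 0.12 for Tgfb2 (adjusted p = 0.0374). For Tgfb1 it was -0.19 ± 0.08 and did not pass (adjusted p = 0.116). The Tgfb2 difference rests on the full set of libraries: leaving out 1 library at a time, it lost its call in 10 of 19 cases, with values of -0.38 to -0.29 there. These cases were 150 nM replicates 3, 4 and 5, 50 nM replicates 3 and 4, Sec24B replicates 2, 3 and 4, and triple knockdown replicates 4 and 5.

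Ltbp1 (ENSMUSG00000001870, chromosome 17, 75005568 to 75392512, plus strand) encodes the protein that binds the TGF-beta propeptide by disulphide bonds and tethers the latent complex to the matrix. RefSeq gives it a pair of start sites, and the upstream promoter (chr17:75005279-75005578, plus strand, 58.7% G or C) is shown because Ltbp1 fell in both knockdowns. Capitals mark GTCTG, which reads CAGAC on the other strand, at position -64. The downstream promoter holds 2 such matches, at -148 and -97.
Ltbp1: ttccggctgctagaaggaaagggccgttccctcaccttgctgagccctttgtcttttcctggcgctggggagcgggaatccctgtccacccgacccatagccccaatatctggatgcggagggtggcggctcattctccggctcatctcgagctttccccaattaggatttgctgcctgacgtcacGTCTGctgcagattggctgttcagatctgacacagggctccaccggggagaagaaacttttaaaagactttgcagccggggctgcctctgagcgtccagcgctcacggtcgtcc
Reads of both starts are counted together in the deposited values.

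Ltbp1 had the highest level of the 9 genes per exon length, at 252.8 normalised counts per kilobase in the triple knockdown against 395 with 150 nM scrambled siRNA. It stood at 2197, 2740, 2931, 2896 and 2748 normalised counts in the triple knockdown, against 3917, 3907, 4393, 4550 and 4349 with 150 nM. The groups lay far apart, and the mean fell by 36% (log2 fold change -0.65 ± 0.07, adjusted p = 1.26e-07). The lowest value came from replicate 1, the library that stood apart, and without it the effect was -0.58 (adjusted p = 1e-08). Ltbp1 in the Sec24B knockdown stood at 2935, 3171, 3382, 2907 and 3163, against 3770, 3860, 4327 and 4228 with 50 nM. All Sec24B libraries were below all controls, and the mean fell by 23.1% (-0.38 ± 0.08, adjusted p = 0.00116). The difference between the knockdown effects, -0.27 ± 0.10, did not pass (adjusted p = 0.084).

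**Figure D2:**
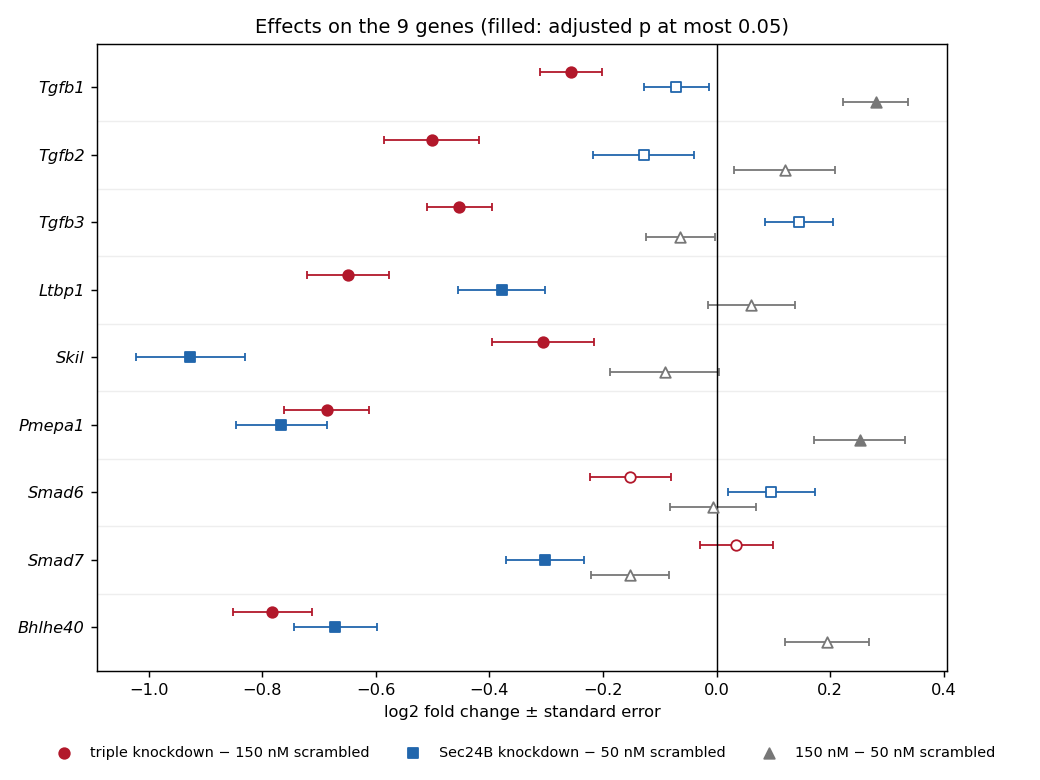
Log2 fold changes of the 9 genes with their standard errors from the limma fit, for the triple knockdown minus 150 nM scrambled siRNA (circles), the Sec24B knockdown minus 50 nM (squares) and 150 nM minus 50 nM (triangles), filled where the adjusted p is at most 0.05. Skil falls further in the Sec24B knockdown (-0.93) than in the triple (-0.31), and Tgfb3 has opposite signs, 0.14 in the Sec24B knockdown, where it is not called, and -0.45 in the triple. The comparisons share control libraries.

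Skil (ENSMUSG00000027660, chromosome 3, 31095058 to 31122577, plus strand) encodes SnoN, a corepressor that binds SMAD complexes on DNA, is degraded on TGF-beta signalling and is then made anew as a feedback inhibitor. It had the largest fall of the 9 genes in the Sec24B knockdown, at 220, 209, 189, 230 and 206 normalised counts against 416, 409, 378 and 403 with 50 nM scrambled siRNA. The groups were far apart, and the mean fell by 47.4% (log2 fold change -0.93 ± 0.10, adjusted p = 3.06e-07). Skil in the triple knockdown stood at 242, 351, 355, 312 and 278, against 415, 360, 381, 382 and 347 with 150 nM. The groups overlapped, and the smaller fall, -0.31 ± 0.09, passed the test (adjusted p = 0.0102). The 2 lowest triple knockdown values were those of replicates 1 and 5, which also held the least Sec24a, Sec24b, Sec24c and Sec24d. Without replicate 1 the effect was -0.22 (adjusted p = 0.0318). Leaving out replicates 1 and 5 together was not tried. The triple knockdown lowered Skil less than the Sec24B knockdown did, by a difference of 0.62 ± 0.13 (adjusted p = 0.00167).

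Pmepa1 (ENSMUSG00000038400, chromosome 2, 173224458 to 173276533, minus strand) encodes a membrane protein that holds SMAD2 and SMAD3 away from the receptors, and TGF-beta induces it. Pmepa1 in the triple knockdown stood at 592, 791, 744, 706 and 728 normalised counts, against 1109, 1248, 1216, 1086 and 1061 with 150 nM scrambled siRNA. With Sec24b siRNA alone it stood at 508, 518, 596, 633 and 572, against 958, 909, 962 and 1009 with 50 nM. Both knockdowns were clear of their controls, with log2 fold changes of -0.69 ± 0.07 (adjusted p = 9.5e-08) in the triple and -0.77 ± 0.08 (adjusted p = 3.2e-07) in the Sec24B knockdown. The difference between these effects was 0.08 ± 0.11 and did not pass (adjusted p = 0.695). Pmepa1 was higher at 150 nM than at 50 nM scrambled siRNA by 0.25 ± 0.08 (adjusted p = 0.0475), with no overlap of libraries. That call was lost in 7 of 9 cases when 1 library was left out (150 nM replicates 1 to 4 and 50 nM replicates 1 to 3, with effects of 0.22 to 0.27).

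Smad6 (ENSMUSG00000036867, chromosome 9, 63953076 to 64022059, minus strand) encodes an inhibitory SMAD that acts mainly on bone morphogenetic protein (BMP) receptors and is induced by BMP signalling. Its promoter (chr9:64022010-64022309, minus strand, 66.3% G or C) is shown because it holds the palindrome GTCTAGAC, in capitals, from position -4 across the start site, one of the 70 in the table with these letters.
Smad6: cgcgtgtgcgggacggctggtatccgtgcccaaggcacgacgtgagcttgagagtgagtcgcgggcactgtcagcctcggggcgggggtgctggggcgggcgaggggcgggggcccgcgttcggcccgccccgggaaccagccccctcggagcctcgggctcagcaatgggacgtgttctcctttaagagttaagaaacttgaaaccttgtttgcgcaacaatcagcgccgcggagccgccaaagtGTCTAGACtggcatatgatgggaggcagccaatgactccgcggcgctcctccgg
Smad6 passed the test in neither knockdown.

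Smad6 stood at 442, 373, 399, 382 and 433 normalised counts in the triple knockdown, against 441, 450, 509, 426 and 426 with 150 nM scrambled siRNA (log2 fold change -0.15 ± 0.07, adjusted p = 0.11). With Sec24b siRNA alone it stood at 428, 457, 508, 533 and 496, against 472, 425, 452 and 459 with 50 nM (0.10 ± 0.08, adjusted p = 0.471). Knockdown and control libraries overlapped in both comparisons. The difference between the effects, -0.25 ± 0.10, did not pass either (adjusted p = 0.116).

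Smad7 (ENSMUSG00000025880, chromosome 18, 75367529 to 75395935, plus strand) encodes the inhibitory SMAD that blocks the activated TGF-beta type I receptor and brings ubiquitin ligases to it. It stood at 458, 553, 562, 494 and 505 normalised counts in the triple knockdown, against 496, 490, 519, 490 and 509 with 150 nM scrambled siRNA. The triple knockdown libraries lay on both sides of the control range, and Smad7 did not pass (0.03 ± 0.06, adjusted p = 0.738). With Sec24b siRNA alone it stood at 449, 412, 432, 498 and 470, against 554, 569, 531 and 572 with 50 nM. These groups did not overlap, and the mean fell by 18.8% (-0.30 ± 0.07, adjusted p = 0.00357). The effects differed by 0.34 ± 0.09 (adjusted p = 0.0152). The 150 nM control was itself below the 50 nM control in every library, a difference that did not pass (-0.15 ± 0.07, adjusted p = 0.183).

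Bhlhe40 (ENSMUSG00000030103, chromosome 6, 108660629 to 108666925, plus strand) encodes a basic helix-loop-helix repressor that binds E-boxes and responds to TGF-beta, hypoxia and the circadian clock. It stood at 576, 769, 674, 778 and 719 normalised counts in the triple knockdown, against 1205, 1292, 1268, 1127 and 1134 with 150 nM scrambled siRNA. In the Sec24B knockdown it stood at 647, 668, 670, 635 and 682, against 1019, 1024, 1034 and 1133 with 50 nM. The knockdown libraries of both kinds were below all controls. In the triple knockdown its mean fell by 41.7%, the largest fall of the 9 genes there (-0.78 ± 0.07, adjusted p = 3.1e-09). In the Sec24B knockdown its mean fell by 37.3% (-0.67 ± 0.07, adjusted p = 7.34e-07). The difference between the effects was -0.11 ± 0.10 and did not pass (adjusted p = 0.522). Exons of 0610040F04Rik lie opposite 118 bases of Bhlhe40 exon, and this gene averaged 16.4 to 26.8 normalised counts.

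In all, the knockdown effects differed for 4 of the 9 genes, 2 with the value of the triple knockdown higher (Skil and Smad7) and 2 with it lower (Tgfb2 and Tgfb3), where 7.44% of all genes had a higher and 8.38% a lower value. Without triple knockdown replicate 1 the same counts were found, 7 lower in the triple knockdown and 4 differing.

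Across the 4 groups, the order of levels differed from gene to gene. Tgfb1, Tgfb2, Ltbp1, Pmepa1 and Bhlhe40 had their highest mean with 150 nM scrambled siRNA, Skil and Smad7 with 50 nM, and Tgfb3 and Smad6 in the Sec24B knockdown. The lowest mean was in the triple knockdown for Tgfb2, Tgfb3, Ltbp1 and Smad6, and in the Sec24B knockdown for the other 5. Neighbours in that order often overlapped: for Tgfb2, Smad6 and Smad7 every neighbouring pair of groups shared part of its range. For Skil the Sec24B knockdown (211 ± 15.3) lay clear of the triple knockdown (308 ± 48.5), whereas for Bhlhe40 the Sec24B knockdown (660.2 ± 18.9) overlapped the triple (703 ± 82.4; SD, n = 5 each).

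Levels can be set side by side between genes only per exon length. The length used is the union of annotated exons, and the length of the transcripts expressed was not measured. The order depends on it: in normalised counts with 50 nM scrambled siRNA, Skil averaged 401.5 and Tgfb2 370.8. With 50 nM scrambled siRNA, Ltbp1 stood at 378.5 normalised counts per kilobase of exon, followed by Bhlhe40 at 223.7, Pmepa1 at 195.3 and Tgfb3 at 191.2. Smad6 at 141, Tgfb1 at 133.3 and Smad7 at 123.1 lay close together, and Tgfb2 at 64.0 and Skil at 41.4 were lowest. Among the ligands, Tgfb3 was the highest in the Sec24B knockdown at 211.6 against 126.9 for Tgfb1 and 58.3 for Tgfb2. In the triple knockdown Tgfb3 at 133.7 and Tgfb1 at 135.5 normalised counts per kilobase stood close together, with Tgfb2 at 49.0.

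**Figure D3:**
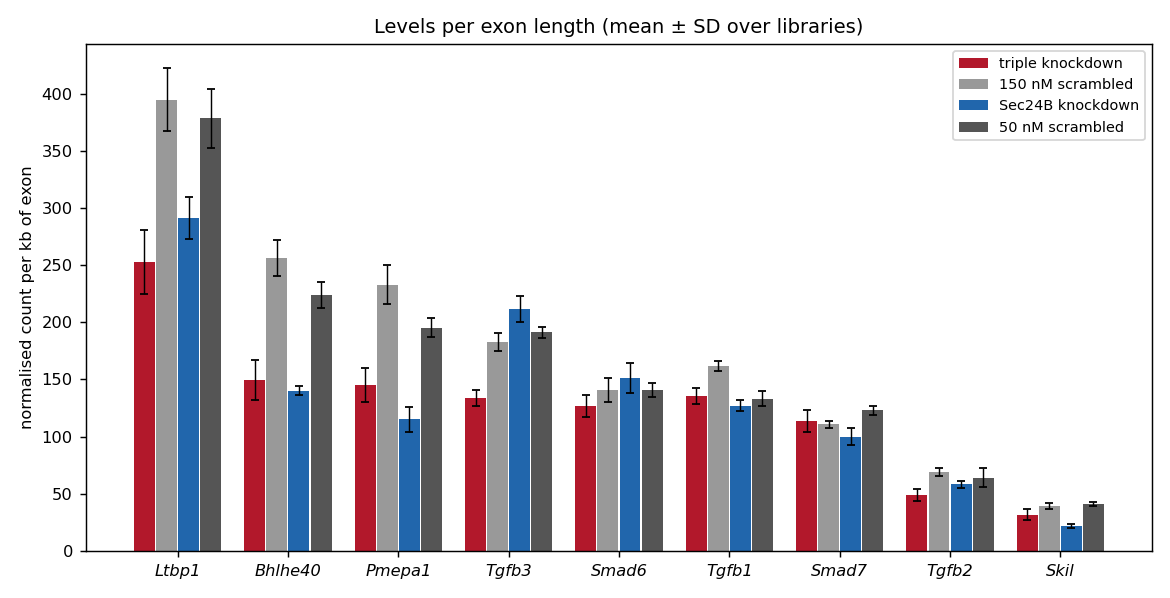
Normalised counts per kilobase of exon (union of annotated exons) for the 9 genes, as group means with SD error bars on a linear axis from 0, in the triple knockdown, the 150 nM scrambled control, the Sec24B knockdown and the 50 nM control. Ltbp1 is highest in each group, from 252.8 in the triple knockdown to 395 with 150 nM scrambled siRNA, and Skil is lowest, from 21.8 in the Sec24B knockdown to 41.4 with 50 nM.

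The genes whose pattern over the 19 libraries was most like each member were found by the root mean square difference between log2 profiles centred on their own mean, among 11477 genes with a mean of at least 50. These profiles share libraries and depth, and nothing is said of shared function. Nearest to Tgfb1 were Dlgap4 (0.0681), Ppp1r18 (0.0756) and Erf (0.0781). Nearest to Tgfb2 were Ipo8 (0.0829), Kif21a (0.0991) and Etv6 (0.103), and to Tgfb3 Ssbp3 (0.0788), Lpcat3 (0.0922) and Lrp11 (0.0937). Of the ligands, then, each had a different set of 3. Ltbp1 was closest to Atp8b2 (0.0708), Chd3 (0.0811) and Lasp1 (0.0815). Nearest to Skil were Tmx4 (0.121), Timm29 (0.142) and Cldnd1 (0.143). Pmepa1 was closest to Lhfp (0.106), Fbln2 (0.114) and Rab31 (0.127), and Bhlhe40 to Fblim1 (0.0967), Bace1 (0.11) and again Fbln2 (0.113), which encodes the matrix protein fibulin-2. Smad7 was closest to Atf1 (0.0683), Alkbh5 (0.07) and Fip1l1 (0.0805). Among the 36 pairs of the 9 genes, Pmepa1 and Bhlhe40 were most alike (0.125), and Tgfb3 and Skil least alike (0.513).

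The rest of the pathway was counted in lists of receptors, latency and activation genes, SMADs and their regulators, SMAD2/3 targets, BMP-SMAD targets, and related ligands with their antagonists. The median log2 fold change over all genes was 0.01 in both knockdowns. Each count below stands beside a background of 16.8% of all genes higher and 17.2% lower in the triple knockdown, and 7.53% higher and 7.08% lower in the Sec24B knockdown. Of 7 TGF-beta receptors, 0 rose and 5 fell in the triple knockdown (median -0.39), and 1 rose and 0 fell in the Sec24B knockdown (median 0.16). That 1 became 2 without Sec24B replicate 4 and under 5 other settings, and 2 rose and 1 fell with only the compared groups fitted. Tgfbr2, the type II receptor, averaged 1204 ± 116 in the triple knockdown against 1788 ± 114 with 150 nM scrambled siRNA (-0.57 ± 0.07, adjusted p = 2.67e-07). Tgfbr1, the type I receptor, averaged 329.7 ± 68.6 in the triple knockdown against 528.4 ± 48.3 (-0.70 ± 0.10, adjusted p = 9.14e-06). Tgfbr3, which encodes betaglycan, averaged 327.7 ± 52.0 against 460.8 ± 25.5 (-0.50 ± 0.09, adjusted p = 6.26e-05). In the Sec24B knockdown these 3 did not pass, with effects of 0.13 for Tgfbr2, -0.22 for Tgfbr1 and 0.18 for Tgfbr3. Tgfbr1 passed as lower there with only the compared groups fitted (adjusted p = 0.0179), and Tgfbr2 as higher with pooled controls (0.19, adjusted p = 0.0259). Acvrl1, the type I receptor ALK1, rose there, to 49.1 ± 8.86 against 26.9 ± 4.6 with 50 nM (0.84 ± 0.20, adjusted p = 0.00471), and had an effect of -0.27 in the triple knockdown, which did not pass.

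Of 13 genes of latency, processing and activation, 1 rose and 9 fell in the triple knockdown (median -0.55), and 3 rose and 5 fell in the Sec24B knockdown (median -0.19). Thbs1, which encodes thrombospondin-1, an activator of latent TGF-beta, fell in both, to 11110 ± 1300 in the triple knockdown against 32200 ± 5360 with 150 nM scrambled siRNA (-1.53 ± 0.11, adjusted p = 6.29e-11). It averaged 16440 ± 1650 in the Sec24B knockdown against 31310 ± 3980 with 50 nM (-0.93 ± 0.12, adjusted p = 3.97e-06). Lrrc32, which encodes GARP, a cell-surface anchor of latent TGF-beta, fell in the triple knockdown (-0.68 ± 0.10, adjusted p = 4.05e-06) and did not pass in the Sec24B knockdown (-0.07). Itgb5, an integrin subunit that pairs with alpha v, fell in the triple (-0.55 ± 0.06, adjusted p = 1.58e-07) and the Sec24B knockdown (-0.24 ± 0.07, adjusted p = 0.0139). The Sec24B call of Itgb5 was lost without 50 nM replicate 4 (-0.19, adjusted p = 0.0657). Ltbp2, a family member that does not bind latent TGF-beta, had opposite calls, lower in the triple knockdown (-0.40 ± 0.08, adjusted p = 0.000559) and higher in the Sec24B knockdown (0.56 ± 0.09, adjusted p = 8.56e-05). Dcn, the proteoglycan decorin, which can bind TGF-beta, rose in the Sec24B knockdown (0.84 ± 0.17, adjusted p = 0.000944), with 0.34 in the triple, which did not pass. The triple knockdown effect of Dcn passed with a replicate block (0.34, adjusted p = 0.0267) and without triple knockdown replicate 5 (0.44, adjusted p = 0.0338). Between the scrambled doses Dcn moved further, with a log2 fold change of -1.38 ± 0.17 for 150 nM minus 50 nM. In the same comparison Lrrc32 was higher at 150 nM (0.32 ± 0.10, adjusted p = 0.0441) and Ltbp2 lower (-0.41 ± 0.09, adjusted p = 0.00405).

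Of 12 SMADs and SMAD regulators, 4 rose and 1 fell in the triple knockdown (median 0.04), and 0 passed in the Sec24B knockdown (median -0.02). With only the compared groups fitted, 2 rose and 0 fell in the triple knockdown, and 1 rose and 1 fell in the Sec24B knockdown. Leaving out 150 nM replicate 3 also left 2 calls in the triple knockdown, and leaving out 150 nM replicate 4 or triple knockdown replicate 3 or 4 left 3. Tgif1, a corepressor of SMAD2 and SMAD3, rose to 1666 ± 46.5 in the triple knockdown against 1245 ± 68.2 with 150 nM scrambled siRNA (0.42 ± 0.05, adjusted p = 3.55e-07). Ppm1a, a phosphatase of SMAD2 and SMAD3, rose there as well (0.22 ± 0.05, adjusted p = 0.00112). Smurf1, a ubiquitin ligase, was the 1 that fell (-0.21 ± 0.07, adjusted p = 0.0237), and without triple knockdown replicate 1 it stood at -0.12 (adjusted p = 0.0545). The Smurf1 call was also lost without 150 nM replicate 3 (adjusted p = 0.0558) or 4 (0.0569), with only the compared groups fitted (0.0826) and with pooled controls (-0.08, 0.522). In the Sec24B knockdown their effects were -0.02, -0.06 and 0.04 for Tgif1, Ppm1a and Smurf1. Smurf1 was higher at 150 nM than at 50 nM scrambled siRNA (0.31 ± 0.08, adjusted p = 0.0123). Its triple knockdown mean, 1618 ± 219, lay above its 50 nM mean, 1503 ± 31.4.

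Of 14 SMAD2/3 targets, 1 rose and 10 fell in the triple knockdown (median -0.58), and 1 rose and 6 fell in the Sec24B knockdown (median -0.23). Ccn2, connective tissue growth factor, fell in the triple (-1.34 ± 0.16, adjusted p = 4.35e-07) and the Sec24B knockdown (-1.51 ± 0.17, adjusted p = 1.16e-06). Its 150 nM control mean, 3528 ± 772, was far above its 50 nM mean, 1407 ± 415 (1.34 ± 0.17), and its triple knockdown mean was 1398 ± 330. Acta2, smooth muscle actin, averaged 12720 ± 1060 in the triple knockdown against 31570 ± 3500 (-1.31 ± 0.08, adjusted p = 1.54e-12), and 28530 ± 1140 in the Sec24B knockdown against 27300 ± 1760, which did not pass. Tgfbi, a matrix protein named for its induction by TGF-beta, likewise fell in the triple knockdown (-0.60 ± 0.05, adjusted p = 3.51e-09) and stood at -0.02 in the Sec24B knockdown. Klf10, an early response gene, fell in the Sec24B knockdown (-0.49 ± 0.08, adjusted p = 0.000223) and stood at -0.09 in the triple. Snai2, a repressor of epithelial genes, was the 1 that rose, in the triple (0.65 ± 0.07, adjusted p = 5.99e-08) and in the Sec24B knockdown (0.39 ± 0.07, adjusted p = 0.000626). Its means were 1039 ± 89.5 in the triple and 1054 ± 58.3 in the Sec24B knockdown, against 660.7 ± 34.6 with 150 nM and 809 ± 79.4 with 50 nM. The 150 nM control was itself below the 50 nM control (-0.29 ± 0.07, adjusted p = 0.014).

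**Figure D4:**
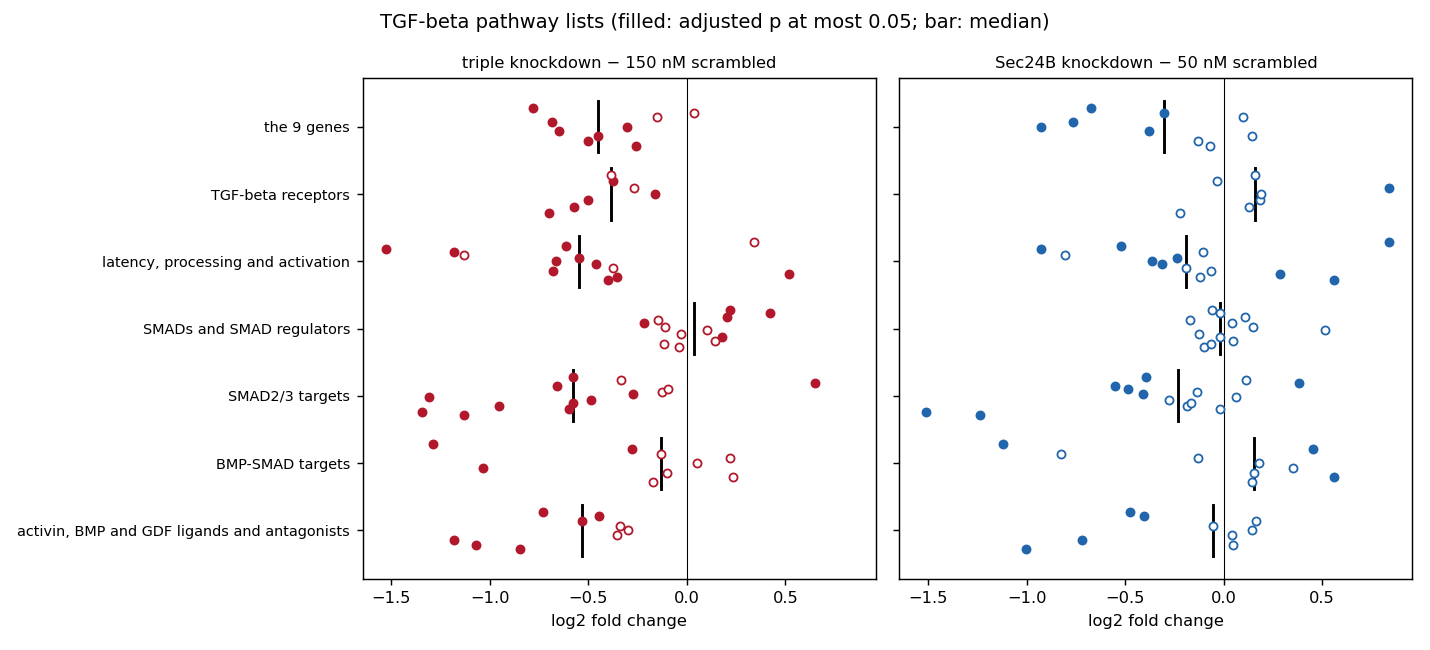
Log2 fold changes of the 9 genes and of the 6 pathway lists in the triple knockdown (left) and the Sec24B knockdown (right), with 1 point per gene, filled where the adjusted p is at most 0.05, and a bar at the median. The receptor median is -0.39 in the triple knockdown and 0.16 in the Sec24B knockdown, and the SMAD regulator medians lie near 0 in both.

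Of 9 BMP-SMAD targets, 0 rose and 3 fell in the triple knockdown (median -0.13), and 2 rose and 1 fell in the Sec24B knockdown (median 0.16). With pooled controls 2 rose and 3 fell in the triple knockdown. Atoh8 had opposite calls, at 295.2 ± 25.3 in the triple knockdown against 359.4 ± 43.4 (-0.28 ± 0.09, adjusted p = 0.0208) and 461.1 ± 41.6 in the Sec24B knockdown against 337.0 ± 39.7 (0.45 ± 0.10, adjusted p = 0.0021). Its triple knockdown call was lost without 150 nM replicate 1 or 3, or triple knockdown replicate 4, at -0.23 to -0.24. Id4, an inhibitor of helix-loop-helix factors, fell in the triple knockdown (-1.04 ± 0.24, adjusted p = 0.00129), at 14.7 ± 3.71 against 32.3 ± 13, and did not pass in the Sec24B knockdown (0.35). Id2, of the same family, rose in the Sec24B knockdown (0.56 ± 0.14, adjusted p = 0.00687) and stood at 0.23 in the triple. With pooled controls the Sec24B call of Id2 was lost (0.28, adjusted p = 0.187) and the triple knockdown effect passed (0.46, adjusted p = 0.0142). Id2 was itself higher at 150 nM than at 50 nM scrambled siRNA (0.51 ± 0.14, adjusted p = 0.0216). Nog, the BMP antagonist noggin, had few counts, 7.15 ± 3.38 in the triple knockdown against 17.8 ± 2.51 (-1.29 ± 0.34, adjusted p = 0.00483) and 6.88 ± 3.53 in the Sec24B knockdown against 16.4 ± 8.85 (-1.12 ± 0.36, adjusted p = 0.0397). The Sec24B call of Nog was lost without 50 nM replicate 2, 3 or 4, or Sec24B replicate 1, 4 or 5, with effects of -1.19 to -0.82. It was also lost with a pseudocount of 0.1 (-1.23, adjusted p = 0.0514).

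Of 13 activin, BMP and GDF ligands and antagonists listed, 9 were tested, since Gdf10, Mstn, Bmp2 and Bmp7 were filtered out or not analysed here. Of these, 0 rose and 6 fell in the triple knockdown (median -0.53), and in the Sec24B knockdown 0 rose and 4 fell (median -0.06). Between the scrambled doses, 4 were higher and 1 lower at 150 nM (median 0.30), beside 4.75% and 4.1% of all genes. Inhbb (0.36, adjusted p = 0.00184), Gdf11 (0.36, 0.00209) and Fstl3 (0.30, 0.0266) were higher at 150 nM. For Inhba the dose effect, 0.25, did not pass (adjusted p = 0.0505). Inhba, the activin A subunit, fell to 623.5 ± 58.3 in the triple knockdown against 1124 ± 128 (-0.85 ± 0.08, adjusted p = 3.02e-09) and to 469.6 ± 25.5 in the Sec24B knockdown against 941.2 ± 26.2 (-1.0 ± 0.08, adjusted p = 9.95e-09). Inhbb, the activin B subunit, fell to 583.7 ± 60.7 in the triple knockdown against 1223 ± 91.1 (-1.07 ± 0.07, adjusted p = 7.98e-12), while its Sec24B effect, 0.05, did not pass. Gdf11, a ligand that also signals through SMAD2 and SMAD3, fell in the triple (-1.18 ± 0.07, adjusted p = 1.47e-12) and the Sec24B knockdown (-0.72 ± 0.07, adjusted p = 2.6e-07). Fstl3, an activin antagonist, fell in the triple (-0.45 ± 0.08, adjusted p = 0.000109) and the Sec24B knockdown (-0.40 ± 0.09, adjusted p = 0.00186). Its triple knockdown mean was 651 ± 71.2, against 885.9 ± 79.3 with 150 nM and 717.8 ± 69.5 with 50 nM scrambled siRNA. Without triple knockdown replicate 1, 8 of these 9 fell there.

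The authors' deposited table gives log2 fold changes for the same contrasts. For Skil it lists -0.30 in the triple knockdown and -0.93 in the Sec24B knockdown. In the authors' deposited table Tgfb3 stands at -0.45 and 0.15 in the same order, and Smad7 at 0.04 and -0.30. That table also sets the triple knockdown directly against the Sec24B knockdown, with 0.55 for Skil and -0.66 for Tgfb3. This contrast holds no scrambled control, and is thus not the difference of effects tested above. In it Pmepa1 stands at 0.33, Smad7 at 0.19, Tgfb1 at 0.09 and Bhlhe40 at 0.09. Smad6 stands at -0.26, Tgfb2 at -0.25 and Ltbp1 at -0.20.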

How the data were processed

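Total RNA of the 19 samples had been extracted with TRIzol and made into sequencing libraries. Per the submitters' processing notes, Trimmomatic 0.27, FastQC 0.10.1, TopHat2 2.0.8 and Partek 6.6 were used, and the builds named, hg19 and GRCh37, are human. The table carries mouse gene IDs, of which GENCODE M21 (GRCm38) holds 19666 of 19716, with the same start and end for 99.0% of these. The read counter, size factors, strandedness and handling of multiply mapped reads are not given in the sources used here. Where genes overlap in opposite orientation, their reads may therefore be mixed.

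In the deposited signal values, the authors had scaled each library's read counts by a single factor. Dividing by the smallest step (0.736 to 1.638) gave whole reads for 100% of values within 0.0055. Without molecular identifiers, read depth bounds counting error only. The log2 fold changes and p-value columns the authors deposited were used only where named.

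The members and gene lists were chosen with earlier results of these data known. Groups came from the labels. In R 4.3.3, a limma 3.58.1 model with an intensity trend was fitted to log2 of the value plus 1 over all 19 libraries with 4 group means, for genes with at least 1 in at least 4 libraries (19635 kept, 81 removed). The plan named edgeR for raw counts and limma for scaled counts; the values are scaled, so limma was used. On the recovered reads, edgeR 4.0.16 called 2928 genes in the Sec24B and 6665 in the triple knockdown, and limma 2868 and 6680. DESeq2 1.42.0, limma-voom, other scalings, pseudocounts, filters, pooled controls, a replicate block and leaving out each library were alternatives. The fit was tested on simulated data.

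All 9 members are named whatever their result, and from each list, per knockdown, up to 3 genes with the smallest adjusted p, and for each member called the 3 most alike genes. The values of 1 list gene that this rule picks are not reported here. Differences of effects are given in the closing section for list genes. Promoters of 4 members came from the RefSeq table for GRCm38.p6. Figures were drawn with matplotlib 3.10.9, and tables made with pandas 2.3.3 and numpy 2.4.6.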

Additional observations from a re-analysis of the deposited data

Results flagged for a closer look

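In 3 of 36 sets of libraries (each of the 9 genes in each of the 4 groups) a single library lay far from the others by Dixon's criterion, which chance meets in about 1 of 20 sets. With 50 nM scrambled siRNA, replicate 4 held 722.76 normalised counts of Tgfb1 (651.91 to 661.76 in the other 3) and 1132.57 of Bhlhe40 (1019.16 to 1034.29 in the other 3). In the triple knockdown, replicate 1 held 2196.51 normalised counts of Ltbp1, against 2740.04 to 2931.03 in the other 4. This is the library that stood apart over all genes.

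The effect of the triple knockdown differed from that of the Sec24B knockdown, by the limma test of the difference adjusted over all genes, for 4 of the 9 genes. The differences on the log2 scale were -0.37 for Tgfb2, -0.60 for Tgfb3, 0.62 for Skil and 0.34 for Smad7.

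It also differed for 17 of the 26 list genes picked by the naming rule, while 7.44% of all genes had a higher and 8.38% a lower value. These genes were picked for small adjusted p-values in the same knockdown comparisons, which favours a difference between the effects. Among receptors the differences were -0.48 for Tgfbr1 (adjusted p = 0.0313), -0.71 for Tgfbr2 (1.33e-05), -0.69 for Tgfbr3 (0.000428) and -1.11 for Acvrl1 (0.0061). Among latency and activation genes they were -0.96 for Ltbp2 (adjusted p = 4.71e-06), -0.61 for Lrrc32 (0.00302), -0.31 for Itgb5 (0.0188) and -0.60 for Thbs1 (0.01). Tgif1 differed by 0.44 (adjusted p = 0.000128) and Ppm1a by 0.28 (0.00843), both SMAD regulators. Among SMAD2/3 targets the differences were -0.58 for Tgfbi (adjusted p = 8.73e-06), -1.37 for Acta2 (5.19e-09) and 0.39 for Klf10 (0.0198). Of the BMP-SMAD targets Id4 differed by -1.39 (adjusted p = 0.00655) and Atoh8 by -0.73 (0.000388). Of the ligands Inhbb differed by -1.12 (adjusted p = 2.09e-08) and Gdf11 by -0.47 (0.00202). The knockdowns have different scrambled controls, and the part of the control dose in these differences was not tested.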

How the results depend on the processing

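The counts of the 9 genes that fell, 5 in the Sec24B and 7 in the triple knockdown, were the same under every alternative scaling, pseudocount, filter and count test tried and when any 1 library was left out. With pooled scrambled controls 6 fell in the triple knockdown, where Tgfb1 lost its call, and 6 fell and 1 rose in the Sec24B knockdown, where Tgfb1 and Tgfb3 gained one. The 4 differences of effects became 3 to 4 when leaving out 1 library. The 2 genes called for scrambled dose became 1 under upper-quartile scaling, and 1 to 2 when leaving out 1 library, and Bhlhe40 gained a dose call (0.19, adjusted p = 0.0271) with only the compared groups fitted. Signs turned round for genes that were not called: with pooled controls Smad7 (-0.033) and Dcn (-0.27) in the triple knockdown, and Smurf1 (-0.13), Acta2 (-0.049), Id4 (-0.041) and Inhbb (-0.15) in the Sec24B knockdown; under upper-quartile scaling Tgif1 (0.009) and Tgfbi (0.012) there. Leaving out 1 library, Smad6 for dose ranged from -0.051 to 0.014 and Tgfbi in the Sec24B knockdown from -0.037 to 0.001. The cause was not tested. Over all genes, calls for dose numbered 2816 with only the compared groups fitted, against 1737, and Sec24B calls 4470 with pooled controls, against 2868. Upper-quartile scaling moved the median of all genes by at most 0.03. Deviations of same-numbered libraries from their group means correlated at -0.36 to 0.13 in the 2 knockdown comparisons and at -0.235 to 0.322 between the scrambled doses. None matched its own number best. Such correlations cannot show whether same-numbered libraries shared a culture or a day, which the labels do not say. With a replicate block the calls of the 9 genes in both knockdowns stayed at 5 and 7, and Ltbp1 gained a call for the difference (-0.26, adjusted p = 0.0378). At this depth, a low gene such as Nog rests on few reads.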
